A study of Mus musculus with 18 samples.

Results

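Ahr, Arnt, Ahrr and Tiparp encode the aryl hydrocarbon receptor (AHR), the partner it needs to bind DNA, and a pair of proteins that turn its signal down again. The 4 genes were taken by symbol, after the Ensembl identifiers of the deposited counts had been matched to gene names, and they are 4 of the 55536 genes counted. They were followed through liver RNA from 18 female C57BL/6 mice, in 6 groups of 3. The dHep mice, which the labels call AhRΔHep, lack AHR in hepatocytes, and received TCDD or peanut oil as vehicle. The dHSC mice, called AhRΔHSC, lack AHR in hepatic stellate cells and received the same treatments. The mice called WT carry floxed Ahr alleles (AhR fl/fl) and also received either TCDD or vehicle. The dose of TCDD was 100 µg/kg by gavage, repeated at intervals of 4 days, and livers were taken on day 92. The labels give neither the Cre driver, nor the deleted part of Ahr, nor the share of cells in which the deletion took place, and they give no age. Each library is 1 mouse, named here by its group and mouse number.

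AHR waits in the cytosol in a complex with the chaperone HSP90. A ligand such as TCDD, a dioxin that the body clears slowly, sends it to the nucleus, where it pairs with ARNT and binds DNA elements that contain the letters GCGTG. Among the genes switched on there are the CYP1 cytochromes and the genes of its own restraint: AHRR, a receptor-like protein that takes ARNT and the DNA element without activating transcription, and TIPARP, an enzyme that attaches ADP-ribose to AHR and lowers its amount. ARNT also partners the hypoxia-inducible factors, and its own gene is generally regarded as steadily expressed. The hepatocyte is the main cell of the liver by mass, and AHR in it is known to drive much of the liver's response to dioxin.

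On GRCm38, Ahr (ENSMUSG00000019256) lies at chr12:35497974-35535038 on the minus strand and Arnt (ENSMUSG00000015522) at chr3:95434388-95497240 on the plus strand. Ahrr (ENSMUSG00000021575) lies at chr13:74211118-74292331 on the minus strand, and Tiparp (ENSMUSG00000034640) at chr3:65528410-65555518 on the plus strand. The start regions of 3 of the 4 genes were in the RefSeq promoter table for GRCm38.p6, which holds the stretch of 250 bases before to 50 bases after a start site, and they are shown because Ahrr and Tiparp moved together in the results while Arnt did not. The 250 bases before the start site are printed 5′ to 3′ on the strand of the gene, with capitals for the core GCGTG of the AHR and ARNT element, or CACGC where it lies on the opposite strand.
Ahrr, chr13:74292332-74292581, minus strand: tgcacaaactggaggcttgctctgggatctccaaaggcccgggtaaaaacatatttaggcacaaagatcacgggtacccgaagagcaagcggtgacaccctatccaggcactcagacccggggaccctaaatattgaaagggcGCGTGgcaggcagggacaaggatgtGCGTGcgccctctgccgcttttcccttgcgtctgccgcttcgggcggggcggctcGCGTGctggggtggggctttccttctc
Tiparp, chr3:65528197-65528446, plus strand: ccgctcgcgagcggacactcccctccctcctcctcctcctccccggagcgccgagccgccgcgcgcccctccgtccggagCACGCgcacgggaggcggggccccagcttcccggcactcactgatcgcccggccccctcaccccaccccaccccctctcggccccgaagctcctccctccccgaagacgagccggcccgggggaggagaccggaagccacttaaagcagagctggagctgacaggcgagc
Arnt, chr3:95434140-95434389, plus strand: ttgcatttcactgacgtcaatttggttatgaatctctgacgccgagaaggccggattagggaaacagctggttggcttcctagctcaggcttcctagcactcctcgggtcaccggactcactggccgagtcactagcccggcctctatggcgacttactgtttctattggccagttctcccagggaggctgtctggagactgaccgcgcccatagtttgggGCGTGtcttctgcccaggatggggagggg
Searched on both strands over the whole table entries, GCGTG occurred 3 times before Ahrr, with first bases at positions -107, -82 and -27 from the start site, once before Arnt at -29, and once on the opposite strand before Tiparp, at -170. The longer form TNGCGTG, which contains GCGTG, matched once before Ahrr, at -29, and in neither of the other entries. Of 32851 promoters of this length, 32.4% hold GCGTG, 3.91% hold at least 3 matches and 5.07% hold TNGCGTG. These matches describe the letters of the window and not binding.

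The deposited values are raw counts, and levels are given here as CPM, the counts of a gene relative to the TMM-scaled total of its library. Total counts ran from 12706490 to 27240877 per library. Differences come from edgeR's quasi-likelihood test, on the log2 scale with standard error (SE), and a gene was called at a Benjamini-Hochberg adjusted p under 0.05 over the 14835 genes tested. Hepatocyte markers were present in all libraries, with a summed level of 49323 to 166861 CPM over 8 genes. A principal component analysis of log2 CPM set 5 of the 18 libraries apart along its first axis (38.3% of variance): dHep TCDD mouse 16, dHep vehicle mice 9 and 15, dHSC TCDD mouse 18 and dHSC vehicle mouse 17. Genes not annotated as protein-coding, pseudogenes included, are called noncoding here. They took 2.20% to 4.25% of the counts in these 5 libraries, against 1.13% to 1.76% in the other 13. Skeletal muscle markers added up to 1662 CPM in WT vehicle mouse 1 and to no more than 4.37 CPM in any other liver.

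Ahr, the gene deleted in hepatocytes or stellate cells by design, was not called in any of the 11 comparisons. Its level was 94.9, 60.8 and 29.0 CPM in dHep TCDD mice 4, 10 and 16, against 56.8, 28.1 and 29.1 CPM in dHep vehicle mice 3, 9 and 15. It was 58.3, 60.8 and 23.2 CPM in dHSC TCDD mice 6, 12 and 18, against 45.5, 40.0 and 32.7 CPM in dHSC vehicle mice 5, 11 and 17. In WT it was 56.6, 53.4 and 44.6 CPM with TCDD in mice 2, 8 and 14, against 32.7, 51.8 and 70.0 CPM with vehicle in mice 1, 7 and 13. The values of all 6 groups overlapped, and the highest level of all 18 libraries was in a liver labelled as lacking AHR in hepatocytes. Against WT, the log2 difference of dHep was 0.26 ± 0.43 with TCDD (SE, 95% interval -0.66 to 1.18) and -0.44 ± 0.43 with vehicle (interval -1.36 to 0.49). For dHSC against WT it was -0.12 ± 0.43 with TCDD and -0.38 ± 0.43 with vehicle. The lowest adjusted p of Ahr in the 11 comparisons was 0.652. The count covers the whole gene, so it checks a genotype label only if the deleted part holds most of the reads or its loss lowers the transcript, and which part that is the labels do not give.

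TCDD did not change Ahr detectably at this depth and spread either. The log2 change was 0.69 ± 0.44 in dHep, 0.27 ± 0.43 in dHSC and 0.00 ± 0.43 in WT, and the 95% intervals reach 1.62 in dHep, 1.19 in dHSC and 0.92 in WT. The biological coefficient of variation of Ahr was 0.384, which is the fitted spread between mice of a group beyond counting error. In bulk tissue, fewer cells of a type and less RNA per cell cannot be told apart. A lincRNA on the opposite strand, Gm48236, covers 7.74% of the exon length of Ahr and had 0 to 11 counts in a library. Whether the counting used strand is not given in the sources used here.

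Arnt, the partner, was likewise not called in any of the 11 comparisons, with a lowest adjusted p of 0.623. It had 48.0, 43.1 and 21.6 CPM in dHep TCDD livers, against 44.4, 21.6 and 21.7 CPM in dHep vehicle livers. It had 42.2, 39.4 and 15.2 CPM in dHSC TCDD livers, against 46.4, 42.4 and 21.2 CPM in dHSC vehicle livers. In WT livers it had 43.0, 24.8 and 44.8 CPM with TCDD, against 55.3, 34.3 and 44.9 CPM with vehicle. All groups overlapped. The log2 change with TCDD was 0.36 ± 0.44 in dHep, -0.18 ± 0.44 in dHSC and -0.26 ± 0.44 in WT. Against WT in vehicle, Arnt differed by -0.62 ± 0.44 in dHep (95% interval -1.54 to 0.31) and by -0.29 ± 0.44 in dHSC.

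**Figure D1:**
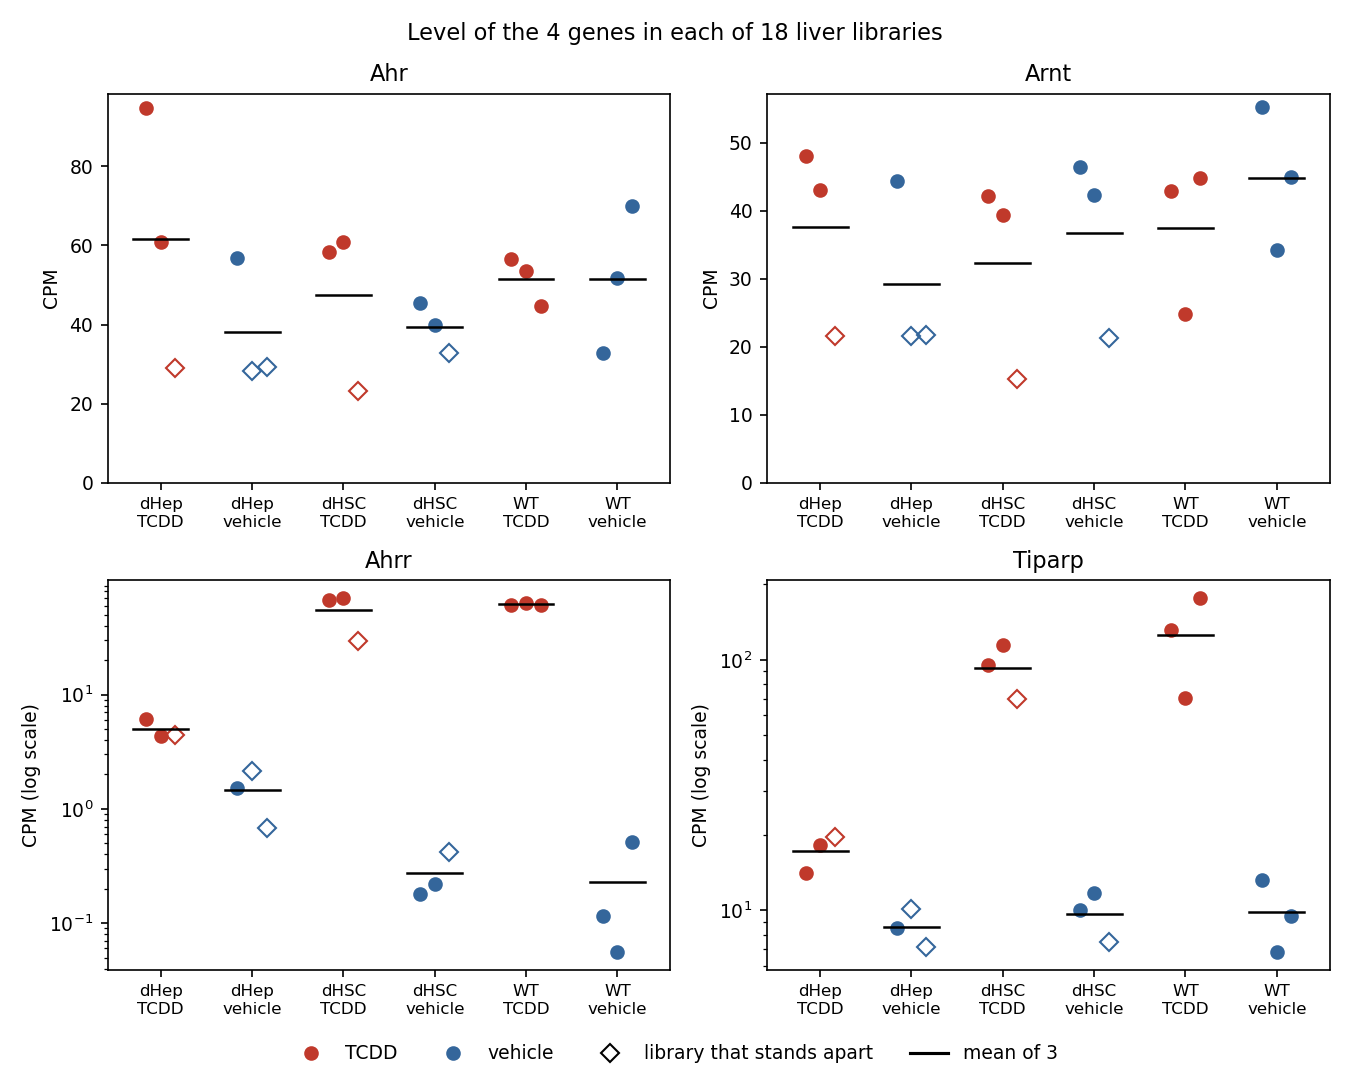
Level of each gene in CPM (vertical axis, logarithmic for Ahrr and Tiparp) in the 6 groups, with 1 point for each mouse, a bar at the mean of 3, TCDD in red and vehicle in blue; open diamonds are the 5 libraries that stand apart. Ahr and Arnt overlap between all groups, while Ahrr lies between 29.4 and 69.9 CPM in dHSC and WT livers with TCDD and between 4.33 and 6.15 CPM in dHep livers with TCDD.

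The levels of Ahr and Arnt were low in the libraries that stand apart. Arnt had 15.2 to 21.7 CPM in those 5 libraries, against 24.8 to 55.3 CPM in the other 13, with no overlap. Ahr had 23.2 to 32.7 CPM in the 5, against 32.7 to 94.9 CPM in the others. WT TCDD mouse 8 had the lowest Arnt of the 13 and, with 1.76%, their highest share of counts outside protein-coding genes. Mitochondrial genes took 8.70% to 28.4% of counts in the 5 libraries, against 4.52% to 9.29% in the others. None of the 5 libraries is WT, and by number they are mouse 9 and mice 15 to 18. The parts of genotype and of mouse number in these levels were not tested. Without the 5 libraries dHep vehicle holds only mouse 3. Its 56.8 CPM of Ahr and 44.4 CPM of Arnt were the highest of its group. In that fit the log2 difference between dHep and WT in vehicle became 0.14 for Ahr and -0.014 for Arnt. A fit of all 18 libraries with the log2 percent of noncoding counts as a covariate gave 0.059 for Ahr and -0.0060 for Arnt. The part of RNA quality in these levels was not tested. Across the 18 libraries, which share these differences, Ahr and Arnt had a Pearson r of 0.704 on the log2 CPM scale.

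**Figure D2:**
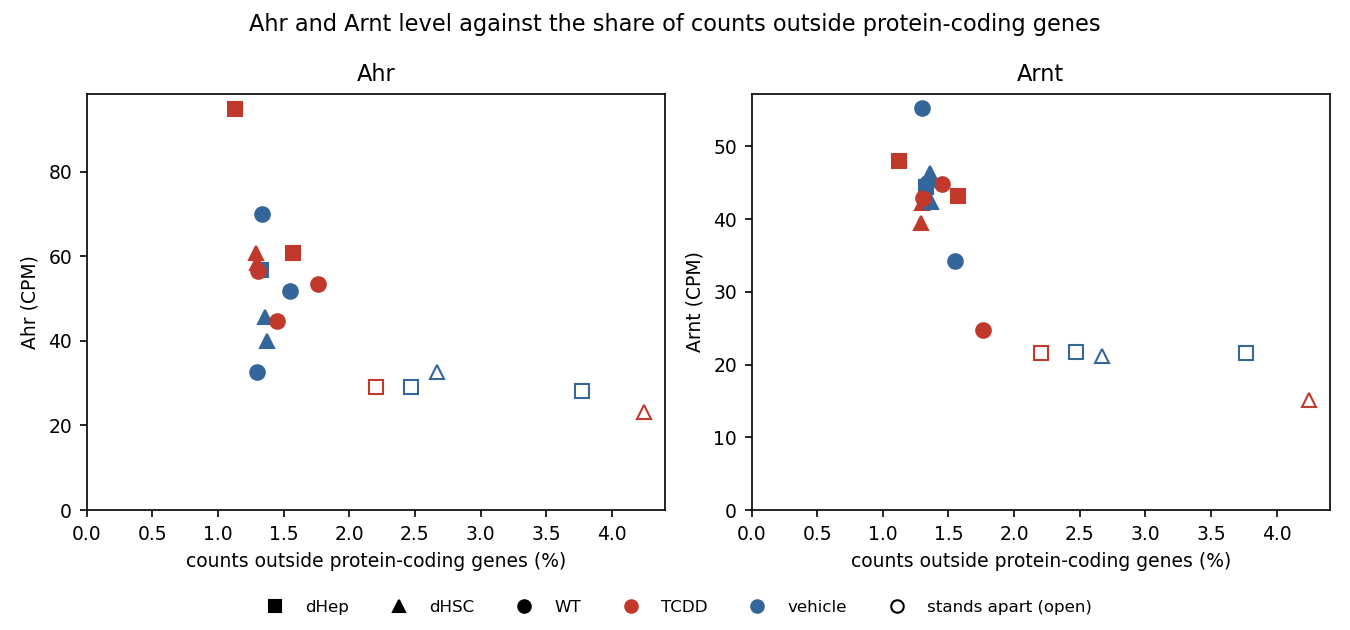
Level of Ahr (left) and Arnt (right) in CPM against the percent of counts outside protein-coding genes, with 1 point for each of 18 libraries, shaped by genotype and coloured by treatment; open symbols are the 5 libraries that stand apart. The open symbols lie at 2.20% or more on the horizontal axis and reach no more than 32.7 CPM of Ahr and 21.7 CPM of Arnt.

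Ahrr, the repressor, was the gene of the 4 that TCDD changed most, and the change was steep in WT and dHSC livers and small in dHep livers. It had 6.15, 4.33 and 4.42 CPM in dHep TCDD livers, against 1.54, 2.14 and 0.679 CPM in dHep vehicle livers. In dHSC it had 66.8, 69.9 and 29.4 CPM with TCDD, against 0.181, 0.221 and 0.422 CPM with vehicle. In WT it had 61.2, 63.0 and 60.6 CPM with TCDD, against 0.115, 0.0560 and 0.517 CPM with vehicle. Every TCDD library lay above every vehicle library of its genotype. The vehicle values of WT rest on 12 counts in the group, 1 to 9 in a library, and those of dHSC on 13 counts.

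In WT, Ahrr rose by 8.03 ± 0.64 on the log2 scale with TCDD (SE, n = 3 against 3, 95% interval 6.67 to 9.39, adjusted p = 4.52e-06), a fold of 262. Without WT vehicle mouse 13, which held 9 of the 12 vehicle counts, the rise was 9.39. It ranked 10th by size of rise among the 14835 genes. In dHSC it rose by 7.66 ± 0.63 (interval 6.32 to 9.003, adjusted p = 6.84e-06), a fold of 202. In dHep the change was 1.76 ± 0.48 (interval 0.73 to 2.78), a fold of 3.38, with an unadjusted p of 0.00221 and an adjusted p of 0.389, so it was not called. DESeq2 gave a change of 1.74 in dHep with an adjusted p of 0.0350 and called it. Within dHSC TCDD, the lowest value belonged to mouse 18, a library that stands apart, and without that library the rise was 7.97.

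Tiparp, the ADP-ribosylating regulator, followed the same pattern over a narrower range. It had 14.2, 18.2 and 19.6 CPM in dHep TCDD livers, against 8.50, 10.1 and 7.17 CPM in dHep vehicle livers. In dHSC it had 94.9, 114 and 69.9 CPM with TCDD, against 10.0, 11.7 and 7.46 CPM with vehicle. In WT it had 132, 70.1 and 176 CPM with TCDD, against 13.2, 6.84 and 9.47 CPM with vehicle. In each genotype the groups did not overlap, and all dHep TCDD libraries lay below all dHSC TCDD and WT TCDD libraries. Tiparp rose by 3.68 ± 0.37 in WT (interval 2.90 to 4.45, adjusted p = 2.44e-05), a fold of 12.8, and by 3.26 ± 0.36 in dHSC (interval 2.50 to 4.02, adjusted p = 8.41e-05), a fold of 9.56. In dHep the change was 1.01 ± 0.34 (interval 0.30 to 1.72), a fold of 2.01, with an unadjusted p of 0.00835 and an adjusted p of 0.523.

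Of the 4 genes, 2 were called higher with TCDD in WT, 2 in dHSC and none in dHep, where the 95% intervals of Ahrr and Tiparp nevertheless lay above 0. Over all genes tested, 3.43% were called higher in WT, 1.71% in dHSC and 0.027% in dHep. Without the 5 libraries that stand apart, Ahrr and Tiparp were again called in WT and dHSC, with a rise of 8.39 for Ahrr and 3.27 for Tiparp in dHSC, and neither was called in dHep. In dHep, 994 genes had an unadjusted p under 0.05, and DESeq2 called 43 genes higher. A pseudogene on the opposite strand, 4931440P22Rik, covers 5.117% of the exon length of Tiparp and had 3.34 to 3.93 CPM in WT TCDD, against 0.504 to 0.917 CPM in WT vehicle. Reads of a gene and of an overlapping one on the other strand cannot be told apart without strand.

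Summed levels of cell type markers also varied between the livers, and no test was run on them. The summed level of 7 neutrophil markers was 82.3 to 97.3 CPM in WT TCDD, against 2.63 to 6.66 CPM in WT vehicle, and that of 8 hepatocyte markers was 49323 to 89228 CPM, against 90869 to 154072 CPM. In dHSC TCDD, the neutrophil sum was 18.5, 13.6 and 155 CPM in mice 6, 12 and 18. The sum of 8 stellate cell markers was 185, 155 and 154 CPM in WT TCDD mice 2, 8 and 14. In WT vehicle it was 294 CPM in mouse 1, the library with skeletal muscle markers, and 97.4 and 136 CPM in mice 7 and 13. Of these markers Lrat, which lies wholly within another gene, had 0 counts in all libraries. The part of the cell types in the rise of Ahrr and Tiparp was not tested.

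In dHep livers most of the induction seen in WT was missing, while no difference in response was called between dHSC and WT. In CPM, the mean of Ahrr was higher with TCDD by 3.51 in dHep, 55.1 in dHSC and 61.4 in WT, so the increment was 5.72% of that of WT in dHep and 89.7% in dHSC. For Tiparp the increments were 8.72 CPM in dHep, 83.3 CPM in dHSC and 116 CPM in WT, so the increment was 7.51% of that of WT in dHep and 71.7% in dHSC. The log2 change of Ahrr with TCDD was smaller in dHep than in WT, with a difference of -6.28 ± 0.76 (interval -7.89 to -4.66, adjusted p = 0.000932, -7.62 without WT vehicle mouse 13) and smaller than in dHSC, with a difference of -5.90 ± 0.76 (interval -7.51 to -4.30, adjusted p = 0.00163). That of Tiparp was smaller in dHep than in WT, with a difference of -2.67 ± 0.48 (interval -3.68 to -1.66, adjusted p = 0.0131). Leaving out WT vehicle mouse 13 gave an adjusted p of 0.0521 for it, and leaving out the 5 libraries that stand apart gave -2.75 with an adjusted p of 0.114.

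Against dHSC, the response of Tiparp in dHep differed by -2.25 ± 0.47 (interval -3.25 to -1.24) with an adjusted p of 0.0506, just short of the threshold. Both comparisons of dHep use the same dHep libraries. They also take in the vehicle levels. For Ahrr, dHep lay 2.65 above WT in vehicle on the log2 scale, a difference that was not called. Among all genes, 0.506% had a response called smaller or more negative in dHep than in WT, and 0.276% than in dHSC. Of the 4 genes these were 2 against WT and 1 against dHSC.

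Between dHSC and WT, the response differed by -0.37 ± 0.83 for Ahrr (95% interval -2.14 to 1.40) and by -0.42 ± 0.47 for Tiparp (interval -1.41 to 0.57). None of the 4 genes and no other gene was called there, a share of 0% in either direction. At an unadjusted p under 0.05 there were 233 genes, and DESeq2 called 3 lower. These 233 are a smaller share of all genes tested than the 0.05 to be met if no gene differed. Ahrr had few counts in both vehicle groups, and neither interval shows that the responses are alike.

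Set side by side with TCDD, dHep livers differed from WT by -3.63 ± 0.49 for Ahrr (adjusted p = 0.000756) and by -2.86 ± 0.35 for Tiparp (adjusted p = 0.000331). Against dHSC livers with TCDD the differences were -3.47 ± 0.49 for Ahrr (adjusted p = 0.00145) and -2.43 ± 0.35 for Tiparp (adjusted p = 0.00147). Both genes were thus lower in dHep in each comparison, where 1.12% of all genes tested were called lower against WT and 0.849% against dHSC. Between dHSC and WT with TCDD, Ahrr differed by -0.15 ± 0.44 (interval -1.09 to 0.78) and Tiparp by -0.44 ± 0.33 (interval -1.13 to 0.26). None of the 4 genes was called there, nor was any other gene (0%). There 539 genes had an unadjusted p under 0.05, and DESeq2 called 10 higher and 12 lower. These 539 are again a smaller share of all genes tested than the 0.05 to be met if no gene differed.

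**Figure D3:**
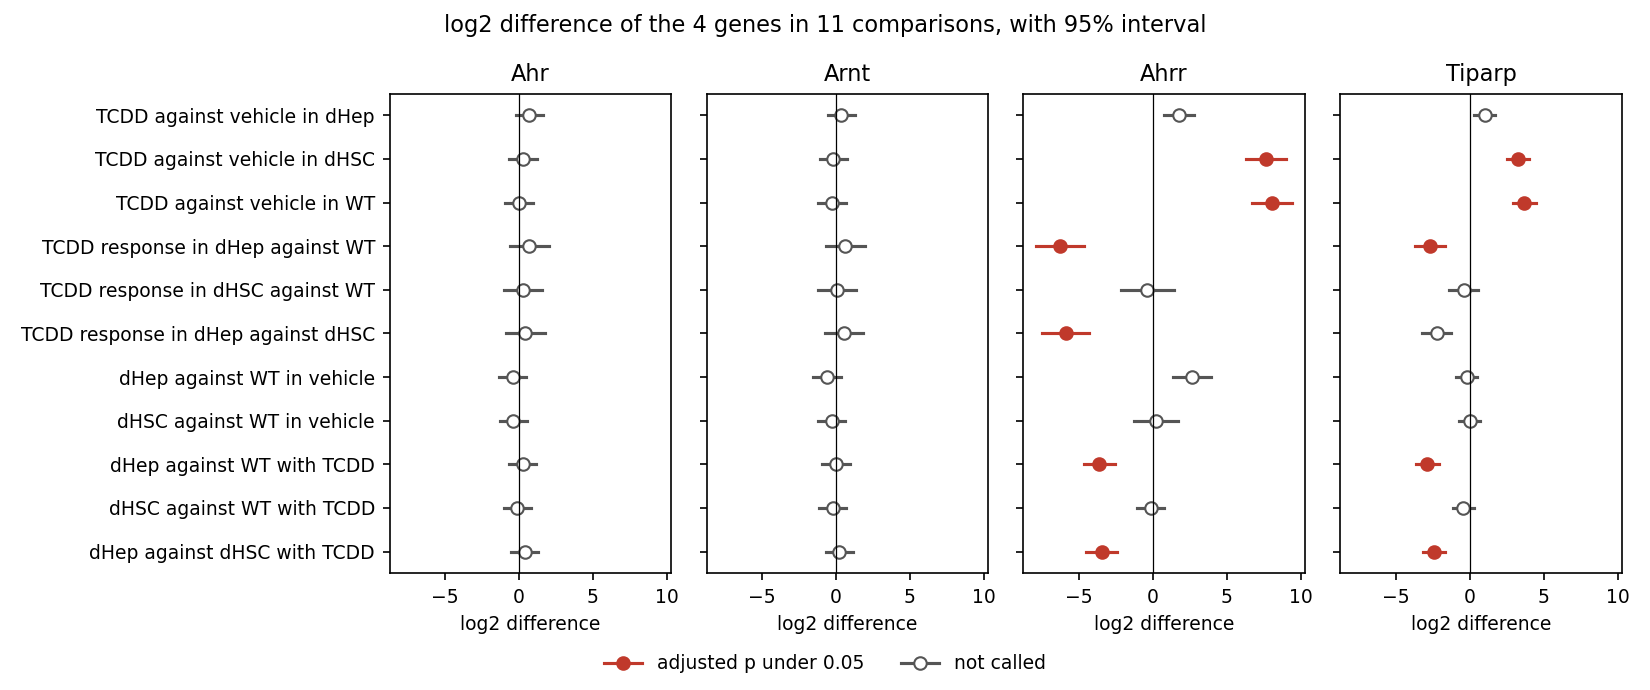
log2 difference (horizontal axis) of each gene in the 11 comparisons, as points with 95% intervals; filled red points have an adjusted p under 0.05. Ahr and Arnt have intervals across 0 in all 11 comparisons, and Ahrr and Tiparp rise with TCDD in dHSC and WT and lie lower in dHep than in either of them under TCDD.

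Without TCDD, Ahrr stood at 1.45 ± 0.735 CPM in dHep livers, 0.275 ± 0.129 CPM in dHSC livers and 0.229 ± 0.251 CPM in WT livers (SD, n = 3 each). All 3 dHep values, from 0.679 to 2.14 CPM, lay above all dHSC and WT values, which reached 0.517 CPM. The log2 difference between dHep and WT was 2.65 ± 0.59 (interval 1.39 to 3.91, unadjusted p = 0.000398), the second lowest p of the comparison. Its adjusted p was 0.623, so it was not called, whereas DESeq2 gave 2.72 with an adjusted p of 0.0316. The test called no gene there (0%), with 1025 at an unadjusted p under 0.05, and DESeq2 called 4 higher and 1 lower. The summed level of neutrophil markers was 7.41 to 24.8 CPM in dHep vehicle livers, against 2.63 to 6.66 CPM in WT vehicle livers, and that of 6 cholangiocyte markers was 69.1 to 175 CPM, against 48.6 to 65.0 CPM. Their part in the Ahrr level was not tested. With only dHep vehicle mouse 3 left of that group after removal of the libraries that stand apart, the Ahrr difference was 2.72.

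Tiparp showed no such shift in vehicle livers. It averaged 8.59 ± 1.47 CPM in dHep, 9.72 ± 2.14 CPM in dHSC and 9.85 ± 3.22 CPM in WT (SD, n = 3 each), with log2 differences from WT of -0.20 ± 0.33 in dHep and -0.02 ± 0.33 in dHSC. For dHSC against WT in vehicle, Ahrr differed by 0.22 ± 0.70. No gene was called in that comparison (0%), and DESeq2 called 1 higher and 4 lower. An unadjusted p under 0.05 was reached by 220 genes, again a smaller share than the 0.05 to be met if no gene differed. Cyp1a1, the xenobiotic-oxidising cytochrome most used as a readout of AHR, averaged 307 ± 25.4 CPM in dHep TCDD livers, against 63.9 ± 33.2 CPM in dHep vehicle livers (SD, n = 3). In WT it averaged 6430 ± 1690 CPM with TCDD, against 15.4 ± 15.5 CPM with vehicle. Cyp1b1 likewise averaged more in dHep vehicle livers, with 11.9 ± 8.69 CPM against 2.08 ± 0.929 CPM in WT vehicle livers. Cyp1a2 went the other way, with 358 ± 109 CPM in dHep vehicle livers against 1189 ± 826 CPM in WT vehicle livers. None of these vehicle differences was called.

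Divided by exon length, the genes can be ranked within a group. The length takes in all annotated exons of a gene, so ranks of close values depend on which transcripts were expressed. In WT livers with TCDD, Tiparp averaged 28.9 ± 12.2 CPM per kb, Ahr 8.36 ± 1.01, Ahrr 6.53 ± 0.134 and Arnt 4.68 ± 1.38 (SD, n = 3). The lowest Tiparp library lay above every library of the other genes, whereas Ahr was above Ahrr in each WT TCDD liver and Arnt overlapped neither Ahrr nor Ahr. In dHep livers with TCDD the order was Ahr with 9.99 ± 5.35 CPM per kb, Arnt with 4.70 ± 1.75, Tiparp with 3.97 ± 0.649 and Ahrr with 0.526 ± 0.108, and there Arnt overlapped both Ahr and Tiparp. In WT livers with vehicle, Ahr averaged 8.35 ± 3.03 CPM per kb, Arnt 5.60 ± 1.31, Tiparp 2.26 ± 0.739 and Ahrr 0.0243 ± 0.0266, and only Ahr and Arnt overlapped.

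The ratio of repressor to receptor RNA shows the same contrast. Relative to its mean, it was steadier between mice than Ahrr itself in dHSC TCDD and WT vehicle livers, the latter with few Ahrr counts. It was not steadier in dHSC vehicle, WT TCDD, dHep TCDD or dHep vehicle livers. Per length, Ahrr was 0.748 to 0.826 times Ahr in the 3 dHSC TCDD livers. Yet Ahrr in mouse 18 stood at 29.4 CPM, against 66.8 and 69.9 CPM in mice 6 and 12. Mouse 18 is a library that stands apart, and its Ahr was low as well, at 23.2 CPM. The ratio was 0.706 to 0.887 in WT TCDD livers and 0.0423 to 0.0996 in dHep TCDD livers. With vehicle it was 0.0152 to 0.0497 in dHep, 0.00260 to 0.00842 in dHSC and 0.000706 to 0.00482 in WT. These are RNA ratios over livers that also hold cells without the deletion, and they give no protein level. They rest on the same exon lengths.

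The genes whose level ran most like that of each member were listed by Pearson r on log2 CPM over the 18 libraries, among 11750 genes averaging 1 CPM or more, as a description. For Ahrr these were Cyp1b1 (r = 0.992) and Cyp1a1 (0.977), both AHR-induced cytochromes, then the collagenase gene Mmp13 (0.951), Tifab (0.948) and Pls1, which encodes an actin-bundling plastin (0.947). Mmp13 was the one of the 5 that was called in dHep as well, with a log2 change of 3.43 and an adjusted p of 0.00943, against 6.34 in WT. That call was lost in a fit of only the groups compared, where no gene was called higher in dHep. It was lost in the same way without dHep vehicle mouse 3, dHep vehicle mouse 15 or dHep TCDD mouse 4. For Tiparp they were Cyfip2 of the actin-regulating WAVE complex (0.984), the zinc-finger gene Ovol1 (0.967), the pentraxin gene Nptx1 (0.964), the kinase gene Src (0.959) and the sterol transporter gene Abcg1 (0.958). Nptx1 changed by 9.33 in WT and by 0.0085 in dHep on the log2 scale. Ahrr and Tiparp had an r of 0.920 with each other, but the deviations of their libraries from the group means had an r of 0.196.

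For Arnt the likest genes were the acetyltransferase gene Kat7 (0.978), the ubiquitin ligase gene Nedd4 (0.978), the nuclear pore gene Tpr (0.977), the transcription factor gene Atf1 (0.977) and Fkbp9 (0.974). None of these 5 was called in any TCDD comparison, and their r over the 13 libraries left after removal of those that stand apart was 0.881 to 0.940. For Ahr they were Ube2g2 (0.870), Fam84b (0.857), Creg1 (0.855), the deubiquitinase gene Usp46 (0.852) and Abhd2 (0.850), with an r of 0.497 to 0.629 over the 13.

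Other genes of the pathway were read from lists of chaperones, partners, corepressors and targets, and most of them were not called. Of 9 genes for the cytosolic AHR complex and its regulators, 8 were tested. In WT, Src, the kinase held in that complex, rose by 2.47 ± 0.37 (adjusted p = 0.000758), and Macrod1, an enzyme that removes ADP-ribose, fell by 1.15 on the log2 scale (adjusted p = 0.0187). In dHSC only Src was called among the 8, with a rise of 2.07 ± 0.36 (adjusted p = 0.00496), and in dHep none was. The response of Src was smaller in dHep than in WT, with a difference of -2.25 ± 0.50 (adjusted p = 0.0472), a call that was lost without the 5 libraries that stand apart. The list medians were 0.17 in dHep, -0.55 in dHSC and 0.11 in WT, beside -0.0077, -0.0042 and -0.015 over all genes.

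Lists of 9 to 15 tested genes can hold few calls where 3.43% of all genes were called higher and 1.95% lower, as in WT. Of 16 relatives of the bHLH-PAS family, to which AHR, ARNT and the clock and hypoxia factors belong, 9 were tested and none was called with TCDD in any genotype. Of 16 targets of the hypoxia-inducible factors, which need ARNT, 14 were tested and none was called in any genotype, with medians of 0.44 in dHep, 0.20 in dHSC and 0.15 in WT. Of the 15 members of the PARP family beside Tiparp, all were tested and none was called, with medians of -0.06 in dHep, -0.09 in dHSC and -0.19 in WT. Among 12 coregulators and interacting transcription factors, Nfe2l2, which encodes the antioxidant factor NRF2, rose by 1.53 ± 0.28 in WT (adjusted p = 0.00411), and none was called in dHep or dHSC. Without the 5 libraries that stand apart, the calls in WT also included Tle1 and Esr1 with a fall, Relb and Parp8 with a rise and Pdk1 with a fall, and Nfe2l2 was called higher in dHSC as well.

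The tryptophan and kynurenine pathway makes some compounds that bind AHR. Of 11 of its enzyme genes, 9 were tested, and 4 were called lower in WT with TCDD: Kyat1 (-1.83 ± 0.44), Aadat (-1.78 ± 0.34), Haao (-1.15 ± 0.31) and Kmo (-0.98 ± 0.27), with adjusted p from 0.00509 to 0.0447, where 1.95% of all genes were called lower. The list median was -0.07 in dHep, -0.77 in dHSC and -0.88 in WT, and none of the 9 was called in dHep or dHSC. The differences in response between dHep and WT were not called for these 4, with adjusted p from 0.128 to 0.878. The hepatocyte marker sum was lower in the same WT TCDD livers, as given above, and its part in these changes was not tested.

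Of the 10 classical AHR targets, which include Ahrr and Tiparp, 8 were tested. None was called in dHep, 6 were called higher in dHSC and 7 in WT, where the share of all genes called higher was 0.027% in dHep, 1.71% in dHSC and 3.43% in WT. The list median was 1.47 in dHep, 3.30 in dHSC and 4.07 in WT. The list was chosen for its known response to AHR. Besides both members and the CYP1 genes, these were Nqo1, a quinone reductase, with a rise of 1.69 ± 0.32 in dHSC and 2.67 ± 0.33 in WT, and in WT the glutathione transferase gene Gsta1. Without the 5 libraries that stand apart, dHSC kept 5 of these calls and lost that of Cyp1a2. Aldh3a1, the tested target left uncalled in WT, had a log2 change of -0.96 in WT and 5.29 in dHep. Its difference between dHep and WT was -6.76 in vehicle and -0.51 with TCDD, and none of these values was called. Stub1, Hif1a, Adm, Afmid and both Ugt1a6 genes had 0 counts in all 18 libraries and lie wholly or to 99.97% within other genes, so no value could be given for them.

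**Figure D4:**
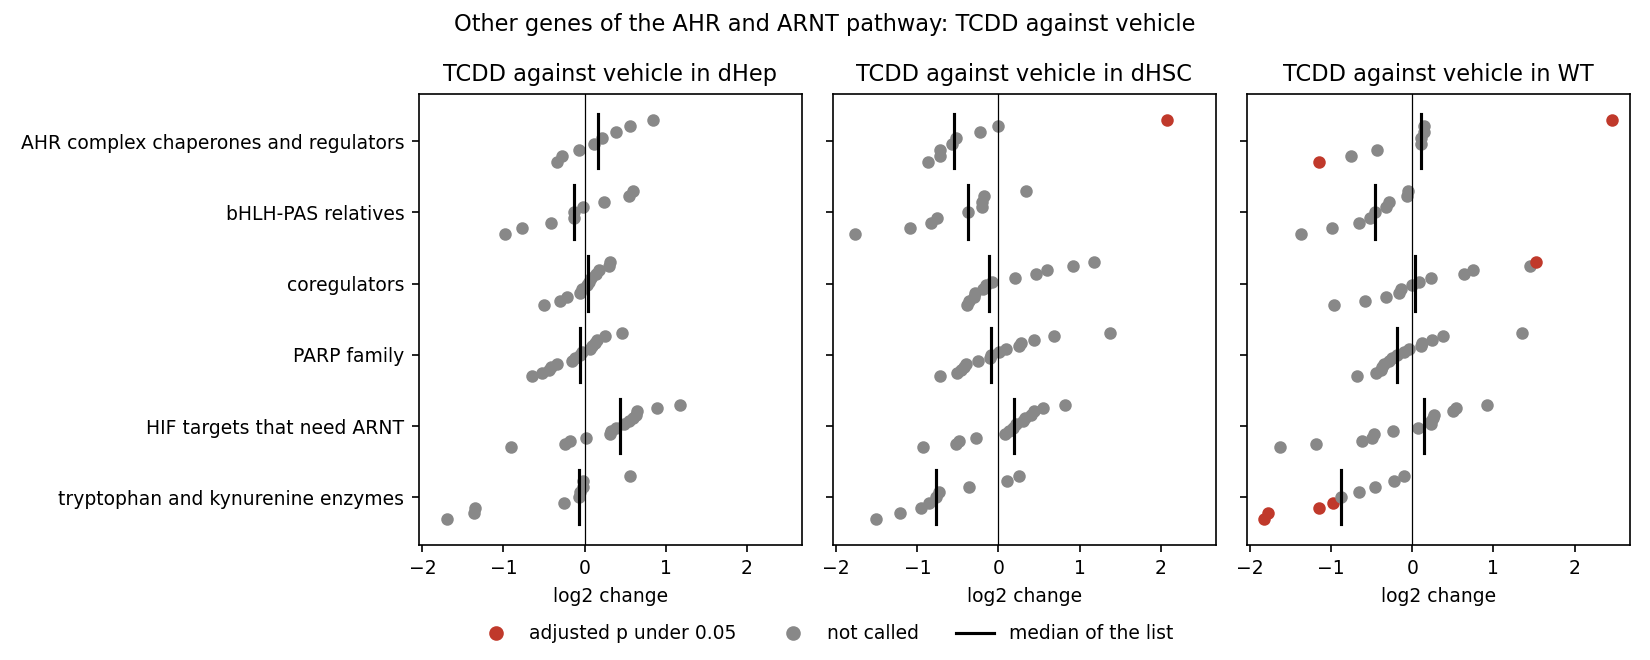
log2 change with TCDD (horizontal axis) of each tested gene of 6 lists in dHep (left), dHSC (middle) and WT (right), with a bar at the median of each list; red points have an adjusted p under 0.05. No gene of these lists is called in dHep, Src is called in dHSC, and Src, Nfe2l2, Macrod1 and 4 kynurenine pathway genes are called in WT.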

How the data were processed

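Messenger RNA was selected by poly-T beads from 10 mg of tissue, and RNA integrity numbers exceeded 6.8, per the labels' protocols. The submitters' processing notes name HISAT2 2.1.0 and HTSeq 0.11.3 on GRCm38, with FastQC 0.11.9 and DESeq2 1.22.2. Counting and strand settings are not given in the sources used here. The deposited files hold raw counts per gene, checked as whole numbers with totals that differ between libraries. Several genes that lie wholly inside other genes had 0 counts in all libraries.

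Names, positions and exon lengths came from GENCODE M21, which names 55450 of the 55536 identifiers. Counts were fitted with edgeR 4.0.16 in R 4.3.3: filterByExpr defaults, TMM scaling, 1 model of 18 libraries with a mean per group, and the quasi-likelihood test with Benjamini-Hochberg adjustment in 11 comparisons. The SE is the log2 difference divided by the square root of F. The procedure was tested on simulated data. DESeq2 1.42.0, RLE scaling, other filters, fewer groups, sets of mice as a term, left-out libraries and a covariate for noncoding counts were alternatives. The 5 libraries left out together were picked from these same data, and the covariate was chosen after seeing the data. The labels do not say whether mice of a group came from separate litters or batches.

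The 4 genes and the gene lists were chosen with earlier results of these data known. Named beside the 4 genes are the called members of the lists. For each of the 4, the 5 genes with the highest r over the libraries are named as well. Further names are the CYP1 genes, Aldh3a1 as the tested target left uncalled, genes without counts and genes that overlap a member. Counting error alone limits values near 1 count.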

Additional observations from a re-analysis of the deposited data

Results flagged for a closer look

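The change with TCDD differed between genotypes for both feedback genes. The log2 change of Ahrr differed by -6.28 between dHep and WT, and it was 1.76 in dHep and 8.03 in WT. Between dHep and dHSC it differed by -5.90, with a change of 7.66 in dHSC. For Tiparp the difference between dHep and WT was -2.67, with a change of 1.01 in dHep and 3.68 in WT. Each was found by edgeR's quasi-likelihood test of the difference in response, with an adjusted p under 0.05 over 14835 genes. Both comparisons of Ahrr use the same dHep libraries.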

How the results depend on the processing

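Refits of the called differences of the 4 genes kept direction throughout, and kept the call in 83 fits that left out a library and 87 under other settings. Both exceptions concerned the Tiparp response in dHep against WT, which lost its call without the 5 libraries that stand apart (-2.75) and without WT vehicle mouse 13, with a range of -2.95 to -2.34 over the left-out libraries.

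The Tiparp response in dHep against dHSC passed the threshold with RLE scaling (-2.26), a minimum of 1 CPM (-2.27), the noncoding covariate (-2.40), only the groups compared (-2.26) and DESeq2 (-2.26), and without dHSC TCDD mouse 18, with a range of -2.42 to -2.05 over the left-out libraries. DESeq2 called Ahrr for TCDD in dHep (1.74) and for dHep against WT in vehicle (2.72).

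The other changes of sign were in values that were not called in either fit. For TCDD in WT, Ahr (0.00) became -0.0066 with RLE scaling, -0.0066 with DESeq2 and -0.10 with 3 sets of consecutive mice as a term. For dHep against WT with TCDD, Arnt (0.0041) became -0.0013 with the minimum of 1 CPM and -0.093 with the 3 sets. The noncoding covariate gave -0.13 for Arnt with TCDD in dHep, -0.051 for Ahr and -0.045 for Arnt in the response of dHep against dHSC, 0.059 for Ahr in dHep against WT in vehicle, 0.037 for Tiparp in dHSC against WT in vehicle, and 0.033 for Ahr and 0.0046 for Arnt in dHSC against WT with TCDD. Without the 5 libraries that stand apart, Ahrr was 0.35 in the response of dHSC against WT, -0.20 in dHSC against WT in vehicle and 0.15 with TCDD. Ahr was -0.019 in the response of dHep against dHSC, 0.14 in dHep against WT in vehicle and 0.20 in dHSC against WT with TCDD, where Arnt was 0.12. Tiparp was 0.14 in dHSC against WT in vehicle.

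Leaving out each library in turn also moved uncalled values across 0. For TCDD against vehicle, Ahr ran from -0.25 to 0.28 in WT and Arnt from -0.47 to 0.15 in dHSC. In the response of dHSC against WT, Ahr ran from -0.025 to 0.59, Arnt from -0.21 to 0.41 and Ahrr from -1.73 to 0.077, and in that of dHep against dHSC Ahr ran from -0.021 to 0.85. In vehicle, Tiparp ran from -0.40 to 0.065 for dHep and from -0.22 to 0.25 for dHSC against WT, and Ahrr from -0.23 to 1.57 for dHSC. With TCDD, Ahr ran from -0.20 to 0.60 and Arnt from -0.22 to 0.28 for dHep against WT. For dHSC against WT with TCDD, Ahr ran from -0.35 to 0.21, Arnt from -0.46 to 0.12 and Ahrr from -0.37 to 0.15. For dHep against dHSC with TCDD, Ahr ran from -0.080 to 0.72 and Arnt from -0.12 to 0.50.

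No paired analysis was possible because the groups share no mouse numbers, and the labels do not say that consecutive numbers mark a shared batch. The fit with the 3 sets of consecutive mice as a term changed no call of the 4 genes. Ahrr could not be fitted in the vehicle comparisons with only their groups, since it did not pass the filter there. Where few counts limit a value, as for Ahrr in WT vehicle, left-out libraries move it most: the rise in WT ran from 7.58 to 9.39. Without the 5 libraries that stand apart, dHep vehicle holds 1 mouse, assumed to vary like those of the other groups. The cause of these shifts was not tested.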
